A study of Mus musculus with 244 samples.

Results

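The genes described are *Wnt4*, *Wnt6*, *Rspo1*, *Lgr5*, *Axin2* and *Lef1*, 6 of the 25122 genes with a row in the count table, chosen by name as ligands, receptor and targets of WNT signalling. Their rows were followed in single oocytes and single somatic cells of staged follicles from ovaries of CD-1 mice at postnatal day 6. The mice carried no named genetic change and received no treatment, so the named groups are set by cell type and by the stage of the follicle each cell was taken from (primordial, transitioning to primary, primary or secondary). The labels hold 13, 19, 20 and 7 oocytes and 40, 47, 56 and 42 somatic cells of these stages, 59 oocytes in all, each sequenced as 1 SMART-Seq2 library, a full-length method that copies the polyadenylated RNA of 1 cell. Cells were compiled from independent collections, but no label ties a cell to an animal, so each group counted as 1 sample, no test was made, and every interval covers counting error only.

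WNT proteins are secreted lipid-modified ligands that bind Frizzled receptors with their LRP co-receptors. In the canonical branch this stops the breakdown of β-catenin by the complex that holds AXIN proteins, and β-catenin then works with LEF1 or a TCF factor to switch on genes such as *Axin2*, whose product feeds back on the pathway. R-spondins, which bind LGR receptors, keep Frizzled receptors at the cell surface. In the ovary *Wnt4* and *Rspo1* are known for their part in female gonad development, and granulosa cells, the somatic cells that surround the oocyte, are a known source of WNT ligands.

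The 6 plate numbers, called plates here, do not list the same genes, and a member was compared only within plates that list it. A plate number can hold several plate codes, and oocytes and somatic cells of 1 number often carry different codes: 3 of 13 oocytes on plate 1, 1 of 8 on plate 2 and 5 of 15 on plate 4 share the code of the somatic cells, while plates 5 and 6 have 1 code each. Beyond the shared codes, cell type and plate code cannot be told apart. *Wnt4* and *Lgr5* are listed on all 6 plates, *Rspo1* on 5, *Wnt6* on 4, *Axin2* on plate 1 alone and *Lef1* on plate 4 alone. Total counts per cell ranged from 5440.2 to 801258 in oocytes, with a median of 96024, and from 5150.2 to 409310 in somatic cells, with a median of 72279. Levels are counts scaled to a total of 1e+06 per cell (CPM), or, for a group, of the summed counts of its cells (pooled CPM). Of the somatic cells, 88.6% had reads of at least 3 granulosa cell markers, 24 cells of at least 3 stroma markers, 12 of at least 3 surface epithelium markers and 0 of at least 3 theca, endothelium or blood markers. All 59 oocytes had reads of at least 3 oocyte markers, 12 of them also of at least 3 granulosa markers, and 39 somatic cells had reads of at least 3 oocyte markers. Before deposit the study removed oocytes that scored high for a somatic gene list and somatic cells that scored high for an oocyte gene list. Most granulosa and oocyte markers are on these lists. The counts of cells with markers of the other type were thus in part set by this filter. The somatic list holds *Wnt6* and *Rspo1*. The low levels of these 2 members in oocytes were thus in part set by that filter and are not independent evidence of a direction. Oocytes were removed by their score over the whole list. Levels of *Wnt4* and *Lgr5* in the kept oocytes may thus also have been lowered, which was not tested.

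The members are protein-coding genes of GRCm38, placed by GENCODE release M21. *Wnt4* lies on chromosome 4 from 137277489 to 137299726, *Rspo1* on chromosome 4 from 124986430 to 125009099, *Wnt6* on chromosome 1 from 74771892 to 74785322, *Axin2* on chromosome 11 from 108920349 to 108950783 and *Lef1* on chromosome 3 from 131110471 to 131224356, all on the plus strand. *Lgr5* lies on the minus strand of chromosome 10 from 115450311 to 115587780. All but *Wnt4* overlap a gene annotated on the opposite strand, and none of these partners has a row in the count table. *Lef1* also overlaps *Gm42449*, annotated on its own strand and likewise without a row. Spans of whole genes were compared here, not their exons. The libraries do not keep the strand, so reads from sequence that a member shares with its partner cannot be told apart by strand.

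The windows printed are those upstream of the ligand read in the most cells and of the 2 members that are targets or factors of the pathway, to show where the letters that TCF and LEF factors bind occur. Each holds the 250 bases before an annotated start (RefSeq, GRCm38.p6, plus strand, 5′ to 3′), and capitals mark the core motif CTTTGA or its reverse complement TCAAAG. The *Wnt6* window is chr1:74771642-74771891, that of *Axin2* is chr11:108920099-108920348, and that of *Lef1*, before an internal start inside the gene, is chr3:131156044-131156293.
Wnt6: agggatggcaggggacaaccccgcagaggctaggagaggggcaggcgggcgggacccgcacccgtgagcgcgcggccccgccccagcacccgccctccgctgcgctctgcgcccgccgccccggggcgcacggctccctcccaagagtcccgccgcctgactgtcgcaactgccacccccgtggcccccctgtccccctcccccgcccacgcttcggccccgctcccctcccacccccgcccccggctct
Axin2: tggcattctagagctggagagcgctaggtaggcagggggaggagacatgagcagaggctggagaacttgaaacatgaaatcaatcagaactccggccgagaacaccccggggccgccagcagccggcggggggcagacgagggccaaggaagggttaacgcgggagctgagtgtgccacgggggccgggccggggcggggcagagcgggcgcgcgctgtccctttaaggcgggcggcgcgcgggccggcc
Lef1: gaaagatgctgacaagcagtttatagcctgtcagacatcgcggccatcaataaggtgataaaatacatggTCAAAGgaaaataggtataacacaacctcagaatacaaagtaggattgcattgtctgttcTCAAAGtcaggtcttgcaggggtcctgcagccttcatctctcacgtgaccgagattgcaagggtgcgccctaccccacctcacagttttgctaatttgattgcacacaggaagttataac
Of 8 windows of 5 members, only this *Lef1* window held the motif, with 2 matches. Over all 32851 windows of that length 13.8% held at least 1, searched on both strands. The other 3 *Lef1* windows and those of *Wnt4*, *Wnt6*, *Rspo1* and *Axin2* held none of these letters. GC content was 79.6% in the *Wnt6* window, 69.2% in that of *Axin2* and 44.8% in that of *Lef1*, against a median of 52.4% over all windows. A match is a match of letters, and its absence says nothing of where a factor binds.

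Somatic cells were compared with oocytes first, to see in which compartment of the follicle each gene was read. Stages were not matched in full: plate 2 set 32 primary somatic cells against 7 primordial oocytes and 1 primary oocyte, and plate 6 set 11 secondary cells and 1 transitioning cell against 8 primary, 3 transitioning and 2 secondary oocytes, so on these plates cell type and stage cannot be told apart. *Wnt6* and *Wnt4* were read mainly in somatic cells on every plate that lists them, *Lgr5* in a few somatic cells, *Rspo1* in few cells of either kind, and *Axin2* and *Lef1* in a larger share of oocytes than of somatic cells. With a difference of at least 2-fold in pooled CPM taken as higher or lower, 14 of 20 pairs of a member and a plate were higher in somatic cells and 3 were lower. The higher calls of *Wnt6* and *Rspo1* among these were in part set by the study's filter on oocytes, and those of *Wnt4* and *Lgr5* may have been. Among all genes with a pooled CPM of at least 5 in either group, the share that was higher in somatic cells was 43.2% on plate 1, 60.9% on plate 2, 54.2% on plate 4, 47.8% on plate 5 and 52.7% on plate 6, and the share that was lower was 26.9, 23.2, 26.9, 21.6 and 22.3%. The members' calls by plate were 3 of 5 higher and 2 lower on plate 1, 2 of 3 higher on plate 2, 4 of 5 higher and 1 lower on plate 4, 3 of 4 higher on plate 5 and 2 of 3 higher on plate 6. With 3 to 5 members on a plate, these counts do not set the members apart from other genes, and the description rests on their own levels. Normalising by TMM instead of the total lowered the log2 ratio of every gene by 0.24, 1.19, 0.76, 0.14 and 0.82 on these 5 plates.

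**Figure D1:**
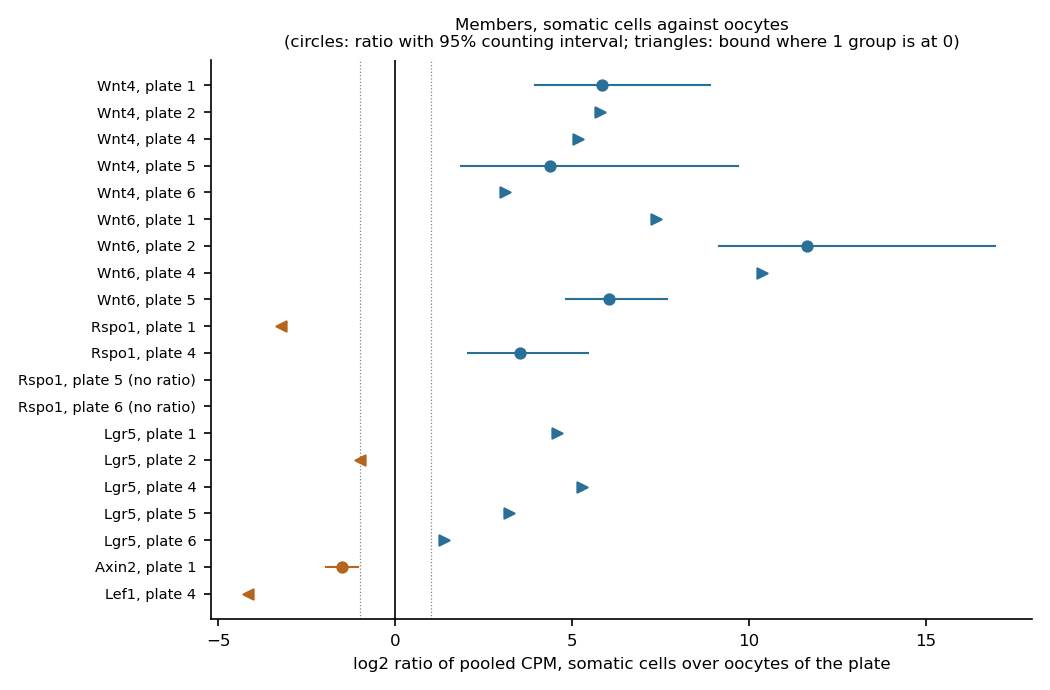
Log2 ratio of pooled CPM, somatic cells over oocytes, for each member and plate that lists it (circles with exact 95% counting intervals where both groups have reads, triangles for bounds where 1 group is at 0, taken as 3 counts). All 9 values of *Wnt4* and *Wnt6* lie above 3, and those of *Axin2* and *Lef1* lie below -1.

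*Wnt6*, which encodes a secreted WNT ligand, was the member read in the most somatic cells, 74.8% of those on the plates that list it, against 2 of 46 oocytes. The 37 somatic cells of plate 1 ranged from 0 to 1260 CPM with a median of 0 and a pooled level of 143.1 CPM (95% interval 133.1 to 153.6), and all 13 oocytes were at 0. On plate 2 the 32 somatic cells ranged from 0 to 4437 CPM with a median of 724, and 1 of 8 oocytes had a single count. On plate 4 the 16 somatic cells ranged from 0 to 2690 CPM with a median of 814, and all 15 oocytes were at 0. The somatic cells with reads thus stood far above the oocytes, but on each plate some somatic cells had none, so the groups overlapped at 0. The study had removed oocytes that scored high for a list holding *Wnt6*, so this distance was in part set by that filter. On plate 5 the 66 somatic cells ranged from 0 to 1945 CPM with a median of 461, and 1 of 10 oocytes, from a primordial follicle, was at 38.3 CPM.

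For *Wnt6* the log2 ratio was at least 7.36 on plate 1, 11.64 (9.16 to 16.94) on plate 2, at least 10.35 on plate 4 and 6.05 (4.83 to 7.68) on plate 5. Leaving out any single cell kept these values between 5.83 and 11.71. Both oocytes with *Wnt6* reads had reads of 4 granulosa markers, and the part of RNA from neighbouring cells in these counts was not tested. With each cell thinned to 12000 counts and shallower cells left out, 15 of 37, 26 of 31, 14 of 16 and 51 of 65 somatic cells on plates 1, 2, 4 and 5 had *Wnt6* reads, against 0 of 10, 0 of 8, 0 of 14 and 1 of 10 oocytes.

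*Wnt4*, which encodes a ligand needed for ovary development, was read in 60 somatic cells (32.4%) and 2 of 59 oocytes. Pooled levels in somatic cells were 33.1 CPM on plate 1 (9 of 37 cells), 47.2 on plate 2 (13 of 32), 102.3 on plate 3 (14 of 22), 32.8 on plate 4 (4 of 16), 30.4 on plate 5 (18 of 66) and 28.6 on plate 6 (2 of 12). The highest single cells reached 243.996, 434, 477, 269, 454 and 160 CPM on plates 1 to 6, while the median cell was at 0 except on plate 3, where it was at 22.4 CPM. *Wnt4* was thus read in a minority of somatic cells on 5 of 6 plates, at levels that varied widely among the cells with reads.

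The 2 oocytes with *Wnt4* reads were primary oocytes with 2 counts on plate 1 and 1 count on plate 5. The log2 ratio of somatic cells over oocytes was 5.83 (3.96 to 8.89) on plate 1 and 4.38 (1.86 to 9.69) on plate 5, and at least 5.78, 5.16 and 3.09 on plates 2, 4 and 6, where no oocyte had a count. On plate 4 a single somatic cell held 69.3% of the counts, and without it the pooled level was 10.99 CPM.

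**Figure D2:**
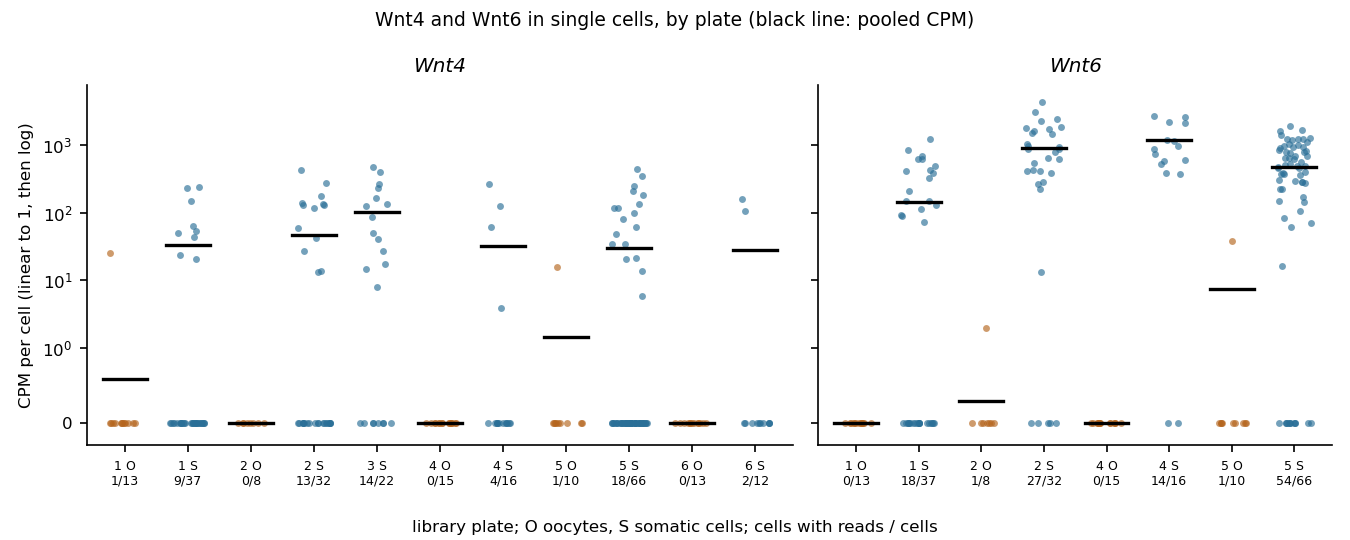
CPM of *Wnt4* and *Wnt6* in every cell by plate number, on an axis that is linear to 1 and logarithmic above (O, oocytes; S, somatic cells; black lines, pooled CPM; numbers, cells with reads out of all cells). Somatic cells with *Wnt6* reads reach 4437 CPM and those with *Wnt4* reads 477 CPM, and almost all oocytes lie at 0.

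The ligands were compared with each other per kilobase of exon, which is 2.192 kb for *Wnt6* and 4.194 kb for *Wnt4*. In somatic cells *Wnt6* was at 65.3 CPM per kb and *Wnt4* at 7.90 on plate 1, and at 415 and 11.3 on plate 2. On plate 4 the levels per kb were 546 for *Wnt6* and 7.82 for *Wnt4*, and on plate 5 they were 221.96 and 7.26. *Wnt6* thus had the higher level per length on all 4 plates that list both. Of the 44 somatic cells with *Wnt4* reads on these plates, 37 also had *Wnt6* reads (84.1%), and of those with *Wnt6* reads 32.7% had *Wnt4* reads. Cells with *Wnt4* reads mostly carried granulosa markers, and 58 of the 60 with *Wnt4* reads had at least 3 of them, beside 88.6% of all somatic cells.

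Somatic cells of different follicle stages were compared within plates 1 and 5, the only plates with at least 5 somatic cells of more than 1 stage. Of 42 pairs of a member and a comparison 31 had enough counts for a ratio, 12 were higher in the later stage and 9 were lower, where 28.2 to 43.3% of all genes were higher and 21.5 to 47.6% lower by comparison. *Wnt4* was higher in secondary than in primordial or primary somatic cells on both plates. Pooled *Wnt6* lay within 2-fold in all 9 comparisons. Some of these *Wnt6* ratios passed 2-fold once single cells, those with conflicting labels or those with oocyte markers were left out, or with other totals.

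Pooled *Wnt4* on plate 1 was 18.3 CPM (95% interval 12.2 to 26.5) for primordial cells, 8.39 (3.84 to 15.9) for transitioning, 18.6 (12.1 to 27.5) for primary and 80.9 (66.8 to 96.98) for secondary ones. Reads lay in 1 of 19, 1 of 8, 3 of 5 and 4 of 5 cells, so the primordial and transitioning levels each rest on 1 cell, at 232.6 and 44.3 CPM. The 5 secondary cells ranged from 0 to 243.996 CPM with a median of 54.1, and the 5 primary cells from 0 to 147.9 CPM with a median of 21.03. Secondary cells stood above the other stages in pooled level, while the ranges of single cells overlapped. Among the 3 earlier stages the ratio was -1.13 (-2.40 to -0.004) in transitioning over primordial, 1.15 (0.004 to 2.44) in primary over transitioning and 0.02 (-0.82 to 0.85) in primary over primordial cells, and leaving out 1 cell moved the first to 1.98 and the second to 0.07. Depth moved with stage here, with median totals of 63070.5, 81408, 361900 and 311480 counts from primordial to secondary cells, and the median rRNA share was 32.4, 10.9, 15.5 and 16.1%. Thinned to 12000 counts, 1 of 19, 1 of 8, 2 of 5 and 4 of 5 cells had *Wnt4* reads. The part of rRNA share in this difference was not tested.

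On plate 5 *Wnt4* was at 3.90 CPM (1.27 to 9.10) for 21 primordial cells, 14.1 (7.05 to 25.3) for 19 primary and 68.7 (54.8 to 85.1) for 26 secondary ones. Of these 3, 3 and 12 had reads. The highest cell of each stage was at 61.1, 120 and 454 CPM. With cells thinned to 12000 counts, 1 of 21, 2 of 19 and 11 of 25 still had *Wnt4* reads. The secondary stage thus had the larger share of cells with reads and the higher pooled level, the intervals of the primordial and primary stages overlapped, and single cells of all 3 stages overlapped at 0.

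For *Wnt4* the log2 ratio in secondary over primordial somatic cells was 2.14 (1.53 to 2.79) on plate 1 and 4.14 (2.86 to 5.80) on plate 5, and over primary somatic cells it was 2.12 (1.48 to 2.80) and 2.28 (1.37 to 3.34). On plate 5 leaving out any single cell kept these ratios at 2.002 or above. The lowest values on plate 1 were 0.96 and 0.93, and without the only primordial cell with reads the ratio over primordial cells was 5.24. Surface epithelium markers moved with stage on plate 5, where 1 of 21 primordial, 0 of 19 primary and 6 of 26 secondary cells had reads of at least 3 of the 8 listed. The summed share of counts of these markers reached 0.135, 0.189 and 0.183% in the highest cell of each stage. *Gng13* was at 0 at all 3 stages, *Krt19* and *Msln* in primordial cells, *Upk3b*, *Krt7*, *Krt19* and *Msln* in primary cells and *Upk3b* in secondary cells. Without cells with at least 3 of these markers the ratio of secondary over primordial cells was 4.29 on plate 5, and over primary cells 2.47. Reads of at least 3 oocyte markers lay in 13 of 21 primordial, 0 of 19 primary and 2 of 26 secondary cells there. For stroma markers these counts were 8, 3 and 4, and granulosa markers had a median share of counts of 0.45, 2.26 and 2.07%. The part of these markers in the *Wnt4* difference was not tested. Transitioning somatic cells on plates 3 and 4, which hold no other stage in number, had *Wnt4* at 102.3 (91.3 to 114.3) and 32.8 (26.7 to 39.8) CPM, so cells of 1 labelled stage also differed between plates.

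**Figure D3:**
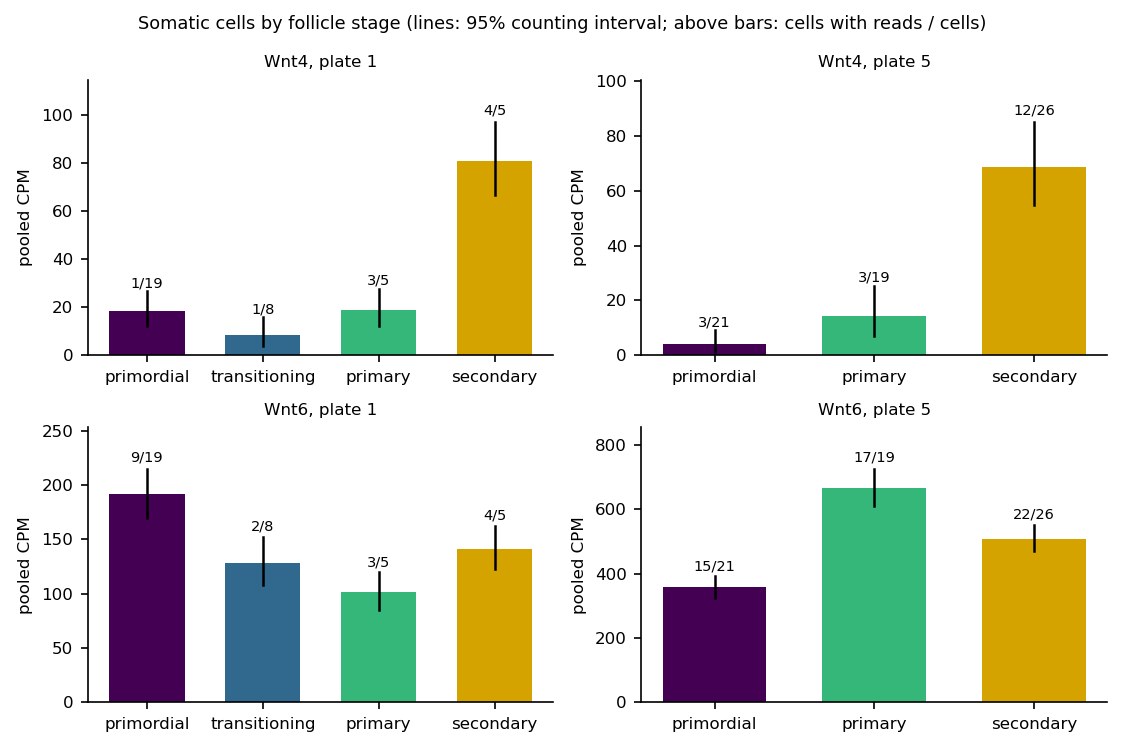
Pooled CPM of *Wnt4* and *Wnt6* in somatic cells by follicle stage on plates 1 and 5 (lines, exact 95% counting intervals; numbers, cells with reads out of all cells). *Wnt4* is highest in secondary cells on both plates, while the order of stages for *Wnt6* differs between the plates.

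*Wnt6* was read at all 4 stages. Plate 1 had pooled levels of 191.3 CPM (170 to 214.6) for primordial, 128.7 (108.1 to 152.008) for transitioning, 101.4 (85.1 to 120) for primary and 141.5 (122.7 to 162.4) for secondary somatic cells. Reads lay in 9 of 19, 2 of 8, 3 of 5 and 4 of 5 of these cells. Plate 5 had pooled levels of 358 CPM (326 to 392) for primordial, 665 (609 to 724) for primary and 508 (469 to 550) for secondary somatic cells. Reads lay in 15 of 21, 17 of 19 and 22 of 26 of these. Primordial cells thus had the highest pooled level on plate 1 and the lowest on plate 5. Median cells on plate 5 were at 224.5, 687 and 491 CPM, and the highest at 1945, 1699 and 1259 CPM, with cells at 0 at every stage.

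For *Wnt6* the log2 ratio in primary over primordial cells was -0.92 (-1.22 to -0.62) on plate 1 and 0.89 (0.71 to 1.08) on plate 5, and in secondary over primordial cells -0.44 (-0.70 to -0.17) and 0.51 (0.33 to 0.68). With totals over the genes listed on every plate the secondary over primordial ratio of plate 1 turned to 0.15. On plate 5 these totals raised log2 ratios of primary over primordial cells by 0.60 and of secondary over primordial cells by 0.48. TMM lowered them there by 0.49 and 0.37. Leaving out single cells moved the plate 1 ratio of transitioning over primordial cells, -0.57, as low as -2.13, and that of secondary over transitioning cells, 0.14, as high as 1.69. Without the 2 cells whose stage labels conflict, primary over primordial cells of plate 1 were at -1.67. Transitioning and secondary levels of plate 1, and the transitioning and primary levels, had overlapping intervals. Stroma markers moved with stage on plate 5, where 8 of 21 primordial, 3 of 19 primary and 4 of 26 secondary cells had reads of at least 3 of 6, and their summed share of counts reached 3.80, 4.86 and 3.22% in the highest cell. All 6 had reads at each stage. Without these cells the ratio of primary over primordial cells was 0.39 and that of secondary over primordial cells -0.10. Oocyte markers were also spread unevenly, with reads of at least 3 of 4 in 13 of 21 primordial, 0 of 19 primary and 2 of 26 secondary cells of plate 5, and without those cells these ratios were 1.51 and 1.15.

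Between plates the pooled level of *Wnt6* in cells of the same labelled stage differed more than between stages. Primary somatic cells were at 101.4 CPM on plate 1, 910 (878 to 942) on plate 2 and 665 on plate 5, and transitioning cells at 128.7 CPM on plate 1 and 1196 (1158 to 1235) on plate 4. Plate and collection cannot be told apart in these labels.

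The stage comparisons of all members, with the background, were as follows on plate 1. In transitioning over primordial cells 0 of 5 members were higher and 3 lower (*Wnt4*, *Lgr5* and *Axin2*), beside 28.2 and 47.6% of all genes. In primary over primordial cells 0 were higher and 2 lower (*Lgr5* and *Axin2*), beside 32 and 41.6%. In secondary over primordial cells *Wnt4* was higher and *Lgr5* and *Axin2* lower, beside 33.2 and 42%. These lower calls rest on reads in 1 to 4 of 19 primordial cells. In primary over transitioning cells only *Wnt4* was higher, with 0 lower, beside 42.2 and 33.2%. In secondary over transitioning cells and in secondary over primary cells *Wnt4* and *Axin2* were higher, the latter through 1 cell, with 0 lower, beside 43.3 and 33.8% and beside 31.4 and 30.2%.

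On plate 5, which lists 4 members, *Wnt4* and *Lgr5* were higher in primary than in primordial cells and 0 were lower, beside 34.1 and 27.9% of all genes. In secondary over primordial cells *Wnt4* and *Rspo1* were higher and *Lgr5* lower, beside 35.6 and 22.8%. In secondary over primary cells the same held, beside 29.7 and 21.5%. The *Lgr5* and *Rspo1* calls each rest on 1 or 2 cells, and counts this small do not set the members apart from other genes. Oocyte stages could be compared only on plate 1, in primary over primordial oocytes, where 0 of 5 members were higher and 1, *Rspo1*, was lower, beside 15.2 and 34.1%. This *Rspo1* ratio was -1.82 (-4.25 to 0.006), from 15 counts in 1 primordial oocyte and 3 counts in 2 primary oocytes. Leaving out 1 cell moved it as high as -0.18 or left no ratio.

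*Rspo1*, which encodes an R-spondin, was read in 3 somatic cells and 5 of 51 oocytes on the plates that list it. The somatic cells with reads were a transitioning cell at 238.5 CPM with 43 counts on plate 4 and 2 secondary cells at 151.6 and 24.3 CPM on plate 5. The 5 oocytes ranged from 8.68 to 27.1 CPM, and 15 of their 23 counts came from 1 primordial oocyte. Reads were thus too few for a level by stage. Somatic cells of plate 1 were at 0, with a log2 ratio of at most -3.23 against the oocytes. Without the oocyte that held 15 of the 18 counts there was no ratio, and within the shared plate code both groups were at 0. On plate 4 the ratio was 3.52 (2.06 to 5.46) with all somatic counts in 1 cell, and at most -0.24 without it. All 3 somatic cells with *Rspo1* also had *Wnt6* reads, as did 87.5% of somatic cells on plate 4 and 84.6% of secondary ones on plate 5.

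*Lgr5*, which encodes an R-spondin receptor known as a stem cell marker in several epithelia, was read in 9 somatic cells and 1 of 59 oocytes. The highest cells were a primordial somatic cell on plate 1 at 2818 CPM, a primary one on plate 5 at 2221 CPM, a primordial one on plate 5 at 778 CPM and a transitioning one on plate 4 at 657 CPM. The other 5 ranged from 15.9 to 416 CPM. *Lgr5* reads thus lay in few cells, at levels that differed widely among them, and all other somatic cells had no count. A single cell held 99.1% of the counts of primordial somatic cells on plate 1 and 100% of those of primary somatic cells on plate 5.

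Of the 9 somatic cells with *Lgr5* reads, 7 had reads of at least 3 granulosa markers, 1 of at least 3 stroma markers and 0 of at least 3 surface epithelium markers. The cell at 2818 CPM had reads of 1 of 6 granulosa markers. By stage 4 of 40 primordial, 3 of 47 transitioning, 1 of 56 primary and 1 of 42 secondary somatic cells had *Lgr5* reads. Of the 7 on plates that also list *Wnt6*, 6 had *Wnt6* reads, beside 74.8% of all somatic cells there. Of the 9, 1 had *Wnt4* reads, beside 32.4% of all somatic cells. The oocyte, from a primordial follicle on plate 2, had 6 counts. The log2 ratio of somatic cells over oocytes was at least 4.58, 5.27, 3.20 and 1.39 on plates 1, 4, 5 and 6, and on plate 2 no somatic cell had a count. These bounds hang on single cells: leaving out 1 cell left no ratio on plates 1 and 6 and lowered the bound to 2.57 on plate 4 and 1.75 on plate 5. They also depend on stage. Among secondary cells of plate 5 all 26 somatic cells and 5 oocytes were at 0, with no ratio. Among primordial and primary cells of plate 1 the bound was 5.22.

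*Axin2*, a feedback target of β-catenin that encodes a scaffold of its destruction complex, was read on plate 1 in 8 of 13 oocytes and 5 of 37 somatic cells. The oocytes ranged from 0 to 120 CPM with a median of 10.4 and a pooled level of 34.8 CPM (28.9 to 41.7). The somatic cells ranged from 0 to 266 CPM with a median of 0 and a pooled level of 12.3 CPM (9.50 to 15.6). More oocytes than somatic cells thus had reads, while the highest single cell was somatic. The log2 ratio of somatic cells over oocytes was -1.50 (-1.96 to -1.06), -0.86 among primordial and primary cells only, which is within 2-fold, and -2.15 within the 1 plate code that holds both kinds. The mean of single cells instead of pooled counts also gave -0.86, so the size of this difference depends on which cells are set side by side. With cells thinned to 12000 counts, 4 of 10 oocytes and 4 of 37 somatic cells had reads.

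By stage *Axin2* was at 20.9 CPM (14.5 to 29.01) in 5 primordial oocytes and 40.6 CPM (30.0 to 53.9) in 7 primary oocytes, with reads in 3 and 4 of them, and the 1 transitioning oocyte was at 63.3 CPM. In primary over primordial oocytes the log2 ratio was 0.96 (0.30 to 1.63) and single cells of both stages overlapped. Without the 3 primordial oocytes whose time code conflicts with their label it was -1.04. In somatic cells reads lay in 4 of 19 primordial cells, at 30.3 to 266 CPM, and in 1 of 5 secondary cells, at 71.9 CPM, with 0 counts in the 8 transitioning and 5 primary cells. One of the 8 oocytes and 4 of the 5 somatic cells with *Axin2* reads had reads of at least 3 granulosa markers.

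*Lef1*, which encodes a DNA-binding partner of β-catenin and was the gene with motif letters in one of its windows, was read on plate 4 in 10 of 15 transitioning oocytes and 0 of 16 transitioning somatic cells, which allows a share of cells with a read of up to 18.8% (3 of 16). Most oocytes with reads had few counts, so a cell without reads need not lack the RNA. The oocytes ranged from 0 to 78.99 CPM with a median of 7.90 and a pooled level of 17.4 CPM (13.2 to 22.5), from 57 counts. The log2 ratio of somatic cells over oocytes was at most -4.16, and at most -3.97 among the 5 oocytes that share a plate code with the somatic cells, 4 of which had reads. Of these 10 oocytes, 0 had reads of at least 3 granulosa markers. With cells thinned to 12000 counts, 4 of 14 oocytes and 0 of 16 somatic cells had reads. No other plate lists *Lef1*, so no other stage has a value.

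**Figure D4:**
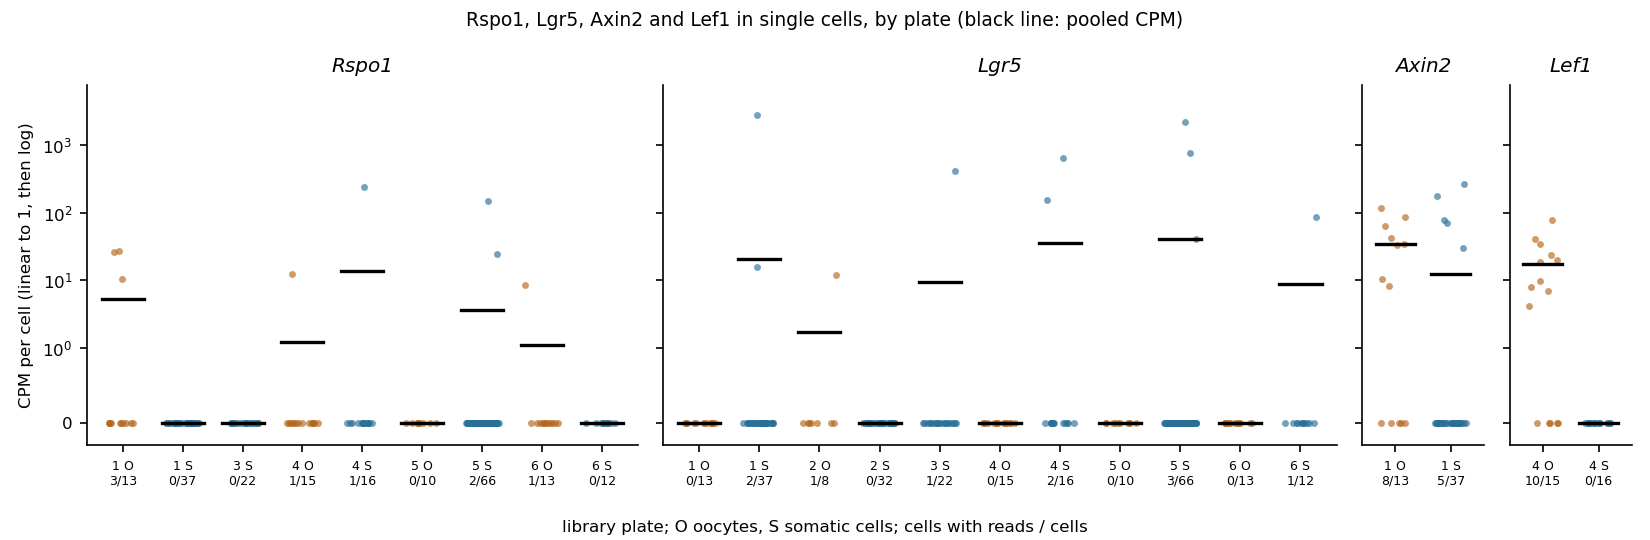
CPM of *Rspo1*, *Lgr5*, *Axin2* and *Lef1* in every cell by plate number, on an axis that is linear to 1 and logarithmic above (O, oocytes; S, somatic cells; black lines, pooled CPM; numbers, cells with reads out of all cells). *Lgr5* lies at 0 in nearly all cells and reaches 2818 CPM in 1, whereas *Axin2* and *Lef1* have reads in 8 of 13 and 10 of 15 oocytes.

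Reads of several members in 1 cell were counted next. In oocytes of plate 1 all 3 cells with *Rspo1* reads were among the 8 with *Axin2* reads, and no oocyte had reads of both *Wnt4* and *Wnt6*. In somatic cells of plate 1, 4 of the 5 with *Axin2* reads had *Wnt6* reads and 2 had *Wnt4* reads. On plate 4, 14 of 16 somatic cells had *Wnt6* reads and 10 of 15 oocytes *Lef1* reads. No cell held both, which follows from 0 counts of *Wnt6* in these oocytes and of *Lef1* in these somatic cells. These are counts of cells, and depth differs between the cells.

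Of a list of 79 other genes of the pathway, 48 to 60 were listed on a plate and 17 to 27 passed the minimum of 5 CPM in a comparison of somatic cells with oocytes. On plate 1, 14 of 27 were higher in somatic cells and 3 lower, with a median log2 ratio of 1.25 beside 0.56 over all genes. On plate 2, 18 of 24 were higher and 3 lower, with medians of 4.72 and 2.36. On plate 4, 12 of 17 were higher and 4 lower, with medians of 2.68 and 1.42. On plate 5, 16 of 23 were higher and 0 lower, with medians of 2.72 and 0.90, and on plate 6, 9 of 17 were higher and 3 lower, with medians of 1.39 and 1.29. Of all genes 43.2, 60.9, 54.2, 47.8 and 52.7% were higher on plates 1, 2, 4, 5 and 6, and 26.9, 23.2, 26.9, 21.6 and 22.3% lower. The list thus lay above the median of all genes on every plate compared, by little on plate 6, which is a description and no test.

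Among the targets of the list *Myc*, a transcription factor gene, had the highest ratio on plates 2, 4 and 5 and the second highest on plate 1. It was at 489, 1315, 1788 and 958 CPM in somatic cells of plates 1, 2, 4 and 5 and at 3.19, 0.57, 0 and 4.40 CPM in oocytes. *Nkd1*, a target that acts on Dishevelled, went the other way on plate 2, with 555 CPM and reads in 8 of 8 oocytes against 85.6 CPM in somatic cells, a log2 ratio of -2.70. Targets of the pathway thus lay on both sides.

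Among the ligands of the list *Rspo2*, an R-spondin known from oocytes, was at 1205 CPM with reads in 15 of 15 oocytes of plate 4 and in 0 of 16 somatic cells, a log2 ratio of at most -10.27. *Wnt8a* and *Wnt9a* were also lower in somatic cells there, with log2 ratios of at most -3.37 and of -2.58. The 3 highest ratios on plate 4 were those of *Rnf43*, an E3 ligase that removes Frizzled receptors, at 6.87, the receptor gene *Fzd6* at a bound of 7.37 and *Myc* at a bound of 10.93. *Ctnnb1*, which encodes β-catenin, was at 711 CPM in somatic cells and 233.3 CPM in oocytes of plate 4, the only plate compared that lists it.

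On plate 1 the highest ratios were those of the nuclear factor *Tcf7l1* at 7.61, *Myc* at 7.26 and *Cd44* at a bound of 4.09, and the lowest those of the antagonist *Sfrp4* at -3.45, *Pygo2* at -2.86 and *Gsk3a* at -1.58. On plate 2 the highest after *Myc* at 11.17 were *Wnt5b* at a bound of 7.39 and *Sfrp1* at a bound of 6.80, and the lowest beside *Nkd1* were *Dkk1* at a bound of -3.84 and *Ror1* at -1.65. On plate 5 the highest were *Myc* at 7.77, *Fzd1* at 5.67 and *Ccnd1* at 4.63, and the lowest *Fzd7* at -0.91, *Dvl1* at -0.21 and *Wnt10a* at a bound of 0.23. On plate 6 the highest were *Ror1* at 4.74, *Sfrp4* at a bound of 4.47 and *Tcf7l1* at 4.22, and the lowest *Fzd5* at -2.08, *Fzd7* at -2.05 and *Nkd2* at a bound of -2.03. *Fzd7* reads thus lay in 8 of 10 and 11 of 13 oocytes on plates 5 and 6, and receptor genes stood at both ends.

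**Figure D5:**
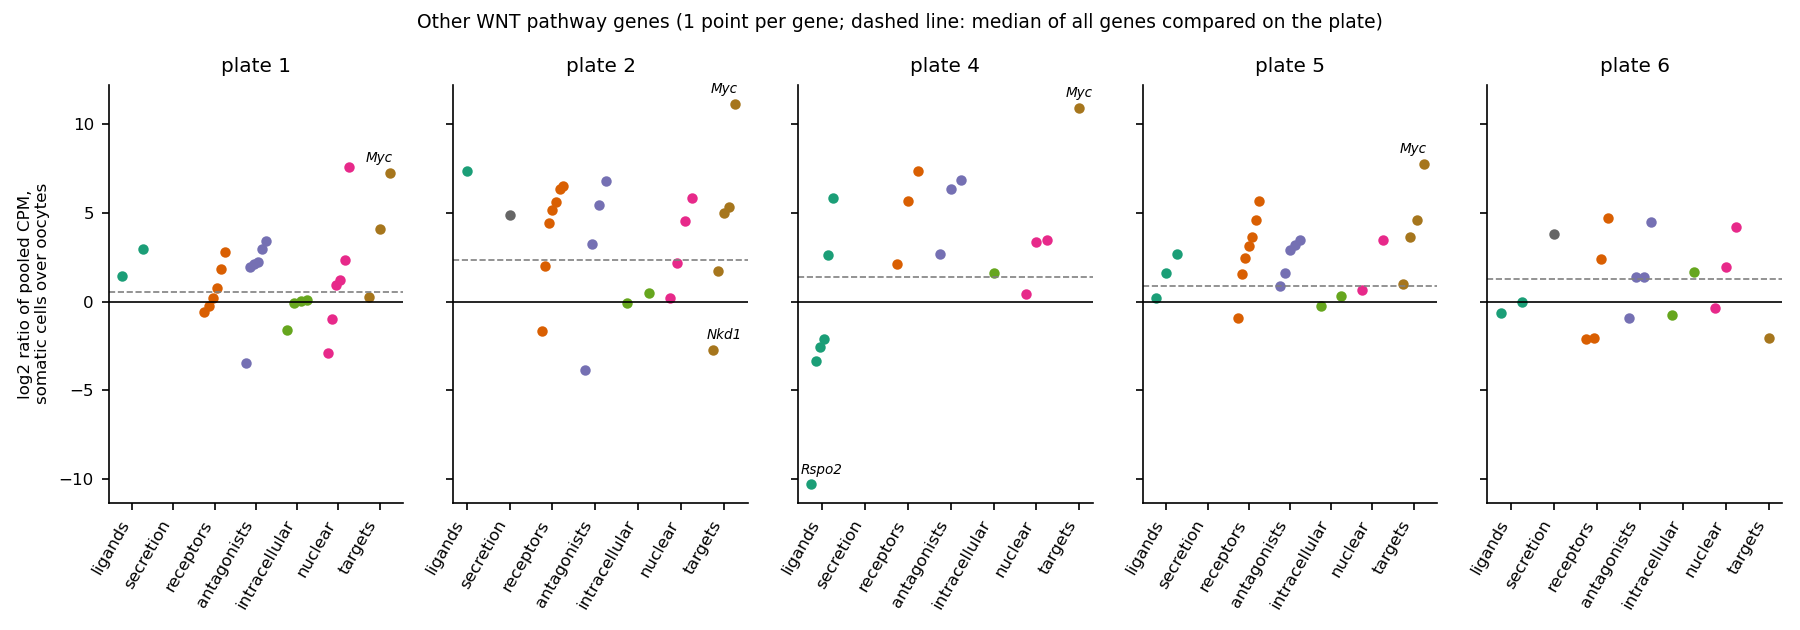
Log2 ratio of pooled CPM, somatic cells over oocytes, for other genes of the WNT pathway by class and plate (1 point per gene with a pooled CPM of at least 5 in either group; groups at 0 are set at 3 counts; dashed line, median of all genes compared). *Myc* lies at 7.26 to 11.17 on the 4 plates that list it, and *Rspo2* at -10.27 on plate 4.

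Between somatic stages the same list gave calls on both sides. On plate 5, 6 of 23 genes were higher and 9 lower in primary over primordial cells (median -0.49, all genes 0.27), 2 and 8 in secondary over primordial cells (-0.44 and 0.45) and 5 and 7 in secondary over primary cells (-0.13 and 0.18). In primary over primordial cells the highest ratios were *Fzd4* at 5.04, *Wnt10a* at a bound of 3.13 and *Fzd6* at 2.19, and the lowest *Ror1* at -5.59, *Tcf7l1* at -3.57 and *Cd44* at -3.09. In secondary over primordial cells they were *Fzd4* at 2.53, *Wnt5b* at 1.51 and *Nkd2* at 0.85, and *Sfrp4* at -4.42, *Fzd2* at -4.29 and *Ccnd1* at -2.95. In secondary over primary cells they were *Ror1* at 4.56, *Tcf7l1* at 3.64 and *Dvl1* at 2.14, and *Sfrp4* at -4.69, *Wnt10a* at -4.65 and *Sfrp2* at -3.40. Each of these rests on reads in at most 8 cells of a stage.

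For plate 1 the counts of higher and lower genes were 4 and 13 of 22 in transitioning over primordial cells (median -1.42, all genes -0.84), 10 and 14 of 28 in primary over primordial cells (-0.73 and -0.33) and 6 and 11 of 23 in secondary over primordial cells (-0.29 and -0.32). They were 12 and 7 of 23 in primary over transitioning cells (1.09 and 0.38), 10 and 6 of 19 in secondary over transitioning cells (1.51 and 0.47) and 7 and 10 of 24 in secondary over primary cells (-0.43 and -0.01). Against primordial cells the extremes were *Nkd2* at 6.51, *Tcf7* at 4.50 and *Fzd6* at a bound of 3.51, and *Dkk3* at a bound of -5.99, *Fzd3* at a bound of -5.31 and *Dvl1* at -5.27 in transitioning cells. In primary cells they were *Axin1* at a bound of 6.27, *Lgr4* at 4.52 and *Wnt11* at a bound of 4.41, and the bounds of *Kremen1* at -7.22, *Dvl1* at -5.01 and *Cd44* at -4.55. In secondary cells they were the bounds of *Fzd6* at 5.61 and *Axin1* at 4.65 and *Lgr4* at 4.09, and *Dkk3* at a bound of -6.41, *Pygo2* at -4.87 and *Cd44* at a bound of -4.65. *Lgr4*, another R-spondin receptor gene, was read in 1 of 19 primordial and in 3 of 5 primary and 3 of 5 secondary cells.

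Against transitioning cells of plate 1 the extremes in primary cells were *Lgr4* at 6.34, *Axin1* at a bound of 5.77 and *Wnt5b* at 4.72, and the bounds of *Kremen1* at -6.70, *Nkd2* at -5.74 and *Fzd6* at -3.32. In secondary cells they were *Pygo1* at 6.28, *Lgr4* at 5.90 and *Axin1* at a bound of 4.15, and *Nkd2* at a bound of -5.83, *Tcf7* at -4.17 and *Pygo2* at -3.23. In secondary over primary cells they were *Pygo1* at 5.60 and the bounds of *Fzd6* at 5.43 and *Kremen1* at 4.38, and the bounds of *Dkk3* at -4.82, *Wnt11* at -4.32 and *Dkk1* at -3.72. In primary over primordial oocytes 4 of 25 genes were higher and 7 lower (median -0.34, all genes -0.56), with *Porcn* at 2.68, *Dkk3* at 1.33 and *Ryk* at 1.28 highest and *Fzd6* at -3.30, *Myc* at -2.82 and *Ccnd1* at -2.74 lowest. With so few cells, 1 cell with many reads is enough to place a gene at either end.

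Genes with a like pattern were sought over the somatic groups of a stage and plate with at least 5 cells, by Pearson's r of log2(pooled CPM + 1). For *Wnt4*, over 11 groups, these were *Gstp1* (0.943), *Mrpl34* (0.855) and *Pla2g1b* (0.848), and for *Wnt6*, over 9 groups, *Zfp608* (0.986), *Mapkapk3* (0.975) and *Olfml2a* (0.970). For *Lgr5*, over 11 groups, they were *Grhl3* (0.827), *Pcdhga5* (0.814) and *Rtn2* (0.809), and for *Rspo1*, with reads in 2 of 10 groups, *RP23-246K11.3* (0.944), *Perm1* (0.903) and *RP24-94F12.6* (0.879). Groups of 1 plate share listed genes and may be alike in depth. These values were picked as the highest of 2265 to 2342 genes, so they describe the groups and no more.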

How the data were processed

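Single-cell SMART-Seq2 libraries were analysed from the table of estimated counts that the authors deposited, which were not normalized. Per the paper reads were aligned to GRCm38, genes were limited to protein-coding ones, cells with few genes and cells scoring high for the other cell type were removed, and Seurat 4 was used (also in the submitters' processing notes). The read counter is not given in the sources used here. The fraction of reads on rRNA, deposited by the authors in the cell table, was read for depth checks only. Of 25149 rows, 27 carry dates in place of names and were left out (0.0743% of counts), 17.2% of counts above 0 are not whole, and 13266 genes are listed on every plate. A missing value means that the plate does not list the gene.

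Cell type and stage came from the titles and plates from the cell table. For 2 somatic cells the cell table gives another stage, and the time code of 3 primordial oocytes is that of secondary cells. CPM used the genes a plate lists. Counts were summed by group within a plate (at least 5 cells) and compared as log2 ratios, with exact Poisson, binomial and split-count intervals at 95%. A group at 0 was set at 3 counts over the group, giving "at least", "at most" or a bound, and no ratio was given where both groups had at most 3. Higher and lower mean a log2 ratio of at least 1 in size. Libraries carry no molecular identifiers, so intervals and limits cover counting error only. The ratio script was tested on simulated counts. The alternatives used edgeR 4.0.16 (TMM), DESeq2 1.42.0 (size factors), totals over genes on every plate, means of single cells, thinning to 12000 counts (6 cells are shallower) and left-out cells. Python 3.11.15, numpy 2.4.6 and scipy 1.17.1 were used. Named genes were the members, the 3 highest and 3 lowest ratios of the pathway list in each comparison, the markers and the 3 genes most like each member. The members and lists were chosen with earlier results of these data known. *Nkd1*, *Ctnnb1* and *Lgr4* were singled out after their values were seen.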

Additional observations from a re-analysis of the deposited data

Results flagged for a closer look

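In 11 groups of 4 to 10 cells of a stage on 1 plate a member had more than 3 counts, and in 8 of them the highest cell lay further from the next one than Dixon's 95% limit allows. Chance flags about 1 group in 20 where values are evenly spread, which these are not, since most cells of such groups are at 0.

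On plate 1 the highest of 8 transitioning somatic cells had *Wnt4* at 44.3 CPM with the others at 0, the highest of 5 primary somatic cells had 147.9 CPM with the next at 23.7, and the highest of 5 secondary somatic cells had 243.996 CPM with the next at 64.1. For *Wnt6* the highest of 8 transitioning somatic cells of plate 1 was at 1260 CPM with the next at 492. For *Axin2* on plate 1 the highest of 7 primary oocytes was at 120 CPM with the next at 42.4, and the highest of 5 secondary somatic cells at 71.9 CPM with the others at 0. *Rspo1* was at 27.1 CPM in the highest of 5 primordial oocytes of plate 1, and *Lgr5* at 11.8 CPM in the highest of 7 primordial oocytes of plate 2, with the others of each group at 0.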

How the results depend on the processing

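No paired analysis was possible because replicate numbers only name cells and no result comes from a test. Of 632 values of 51 ratios under the alternatives, 478 stayed within the counting interval of the ratio or near it. In 30 values of 14 ratios the sign changed, 8 of them for ratios past 2-fold and 22 for ratios within it, the latter *Wnt6* between somatic stages, *Wnt4* in primary over primordial cells of plate 1 and *Axin2* in oocytes. Thinning to 12000 counts left 7 higher calls in somatic cells over oocytes (main 14) and 7 in later somatic stages (main 12). Leaving out single cells gave 13 to 14 higher and 2 to 4 lower calls in somatic cells over oocytes, and 10 to 14 higher and 6 to 11 lower in somatic stages. For primary over primordial oocytes, with 0 higher and 1 lower call, TMM and size factors each gave 1 higher call, and leaving out single cells 0 to 1 higher and 0 to 1 lower. Means of single cells and thinning gave 0 lower calls. A minimum of 50 CPM put the share of all genes higher there at 8.93% (main 15.2%). Ratios past 2-fold changed sign as follows. With all plates together, *Wnt4* was at 2.38 in transitioning over primordial and -0.84 in primary over transitioning somatic cells of plate 1, and *Lgr5* at -1.98 in primary over primordial somatic cells of plate 5. Leaving out single cells put *Wnt4* in transitioning over primordial cells at -2.41 to 1.98, *Lgr5* at -3.21 to 6.06, *Rspo1* in somatic cells over oocytes of plate 4 at -0.24 to 3.78 and *Axin2* in secondary over primordial somatic cells of plate 1 at -3.54 to 0.49 (0.93 when thinned). The cause was not tested. Among comparisons of somatic cells with oocytes where both groups had reads, no alternative run changed the sign of *Wnt4*, *Wnt6* or *Axin2*. A bound can lose its ratio under an alternative but cannot change sign by the way it is set. All ratios of *Lgr5* and *Lef1*, and those of *Wnt4* and *Wnt6* with oocytes at 0, are bounds, so their sign shows nothing here. TMM and size factors took *Lgr5* on plate 6 to 0.57 and 0.42 and on plate 2 to -2.19 and -2.37. Comparing only cells of the same plate code, and leaving out oocytes with granulosa markers, were added after seeing the data and gave 14 higher calls each. The first could not change plates 5 and 6, which hold 1 code each, and it left 3 oocytes on plate 1 and 1 on plate 2. The second removes oocytes by their reads of somatic genes and so favours higher calls in somatic cells. Neither count is independent evidence of a direction. The few counts of *Rspo1*, *Lgr5* and *Lef1* limit what can be ordered by stage.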
